A study of Mus musculus with 35 samples.

Results

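H3K27ac was compared between lineage-negative hematopoietic stem and progenitor cells (HSPC) of Npm1c mice and of WT mice. H3K27ac is acetylation of lysine 27 on histone H3, a mark of active enhancers and promoters, and it was mapped by chromatin immunoprecipitation and sequencing (ChIP-seq). The comparison used 4 of the 35 samples of the series, 2 Npm1c and 2 WT libraries, chosen by genotype, cell type and antibody. For its spread, the gene test also drew on the H3K27ac libraries of Flt3-ITD HSPC, of HSPC labelled DM and of WT neutrophils. Peaks of the histone marks H3K4me1 and H3K4me3 in Npm1c and WT HSPC were looked up at the regions found. Peak lists were deposited for 30 samples. All mice were of the C57BL/6 strain, and the series design calls the 2 libraries of a group biological replicates. The labels used here do not say which promoter or Cre line drives the Npm1c allele, how old the mice were or whether mice were pooled. The p-values therefore measure only the spread between libraries, in the gene test that of all 5 groups.

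Npm1 encodes nucleophosmin, a nucleolar protein that shuttles ribosomal components and histones. Npm1c is the usual name of the leukaemia mutation that moves nucleophosmin to the cytoplasm, and acute myeloid leukaemia with this mutation is known for high HOXA, HOXB and MEIS1 expression. HOX genes encode homeodomain transcription factors that act with MEIS and PBX partners, and in blood they are high in stem cells and low in mature cells. In whole populations of this kind, acetylation in fewer cells and less acetylation per cell cannot be told apart.

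Each deposited H3K27ac list gave peak positions on mm10 (the same assembly as GRCm38.p6) with no height, score or read count, so the depth of the libraries is unknown. Values below are lengths of sequence under peaks. A longer covered length can come from more peaks or from wider peaks, and the part of sequencing depth in either was not tested. The Npm1c lists held 29045 and 30143 peaks on chromosomes 1 to 19, X and Y, against 22060 and 21704 in the WT lists. They covered 23.4 and 23.9 Mb in Npm1c and 15.2 and 15.3 Mb in WT, a ratio of 1.55. With 2 libraries against 2, an exact two-sided permutation test cannot give a p below 0.333, the value found here for peak number and covered length.

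The Npm1c lists held more wide peaks. Median peak width was 566 and 543 bp in Npm1c and 530 and 542 bp in WT, so that the nearest libraries of the groups were 1 bp apart. Peaks of 2000 bp or more numbered 1884 and 1857 in Npm1c, against 585 and 614 in WT, which is 6.49% and 6.16% of the Npm1c peaks and 2.65% and 2.83% of the WT peaks. The widest single peak measured 11055 and 8995 bp in the Npm1c lists and 5224 and 5253 bp in the WT lists. Both Npm1c libraries stood above both WT libraries in peak number, covered length, share of wide peaks and widest peak.

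**Figure D1:**
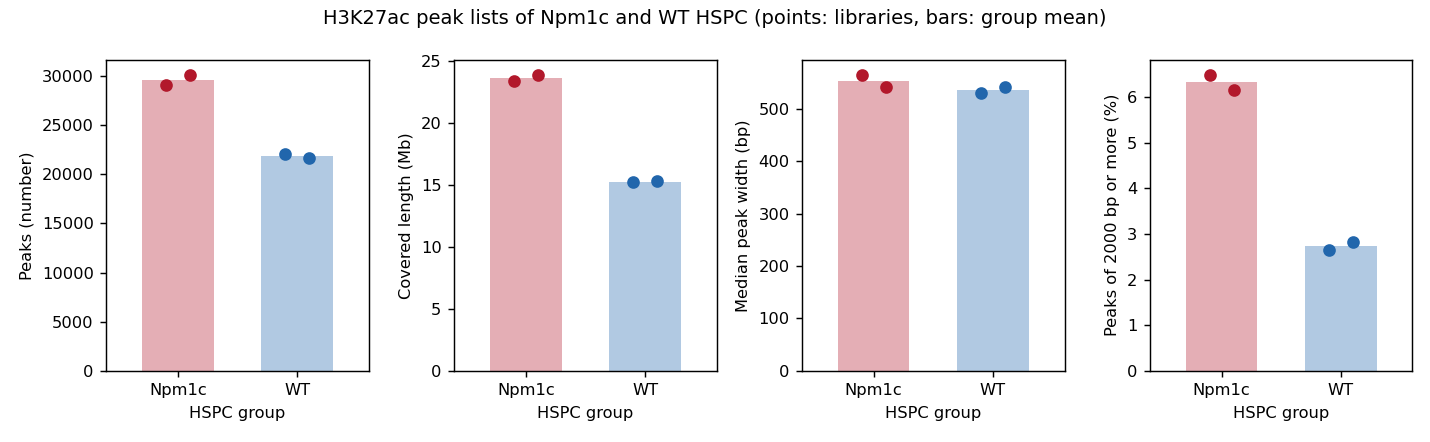
Peak number, covered length in Mb, median peak width in bp and percentage of peaks of 2000 bp or more in the H3K27ac lists of Npm1c HSPC (left) and WT HSPC (right). Points are single libraries and bars are means of 2; covered length is 23.4 and 23.9 Mb in Npm1c and 15.2 and 15.3 Mb in WT, while the median widths lie between 530 and 566 bp.

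The cell identity was checked against marker genes. Kit, Cd34, Gata2, Runx1, Myb, Flt3 and Meis1, all expressed in stem and progenitor cells, carried H3K27ac peaks in all 4 libraries. The lineage genes Cd3e (T cells), Ly6g (neutrophils) and Adgre1 (macrophages) had no peak in any of the 4.

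The Hoxa cluster on chromosome 6 showed the largest change. Between 52155367 and 52260880 of mm10, Npm1c libraries had 23.5 and 23.8 kb under 8 peaks each, whereas WT libraries had 2.05 and 2.39 kb under 6 and 7 peaks. No WT peak there was wider than 547 bp. From Hoxa10 to Hoxa7, the Npm1c lists held near-continuous domains. A region over Hoxa9 and the 3′ part of Hoxa10 (chr6:52223956-52235076) was covered for 11055 and 11049 bp in Npm1c and 535 and 749 bp in WT. In Npm1c replicate 1 this was a single peak, and in replicate 2 it was split into peaks of 7484 and 3565 bp. The adjoining region over Hoxa7 and Hoxa9 (chr6:52215762-52223865) was covered for 7820 and 8104 bp in Npm1c and 685 and 691 bp in WT. Because both regions also held short WT peaks, they count as shared and not as gained. Most of their length was under no WT peak, so the Npm1c peaks at Hoxa9 reached far beyond the short WT peaks.

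**Figure D2:**
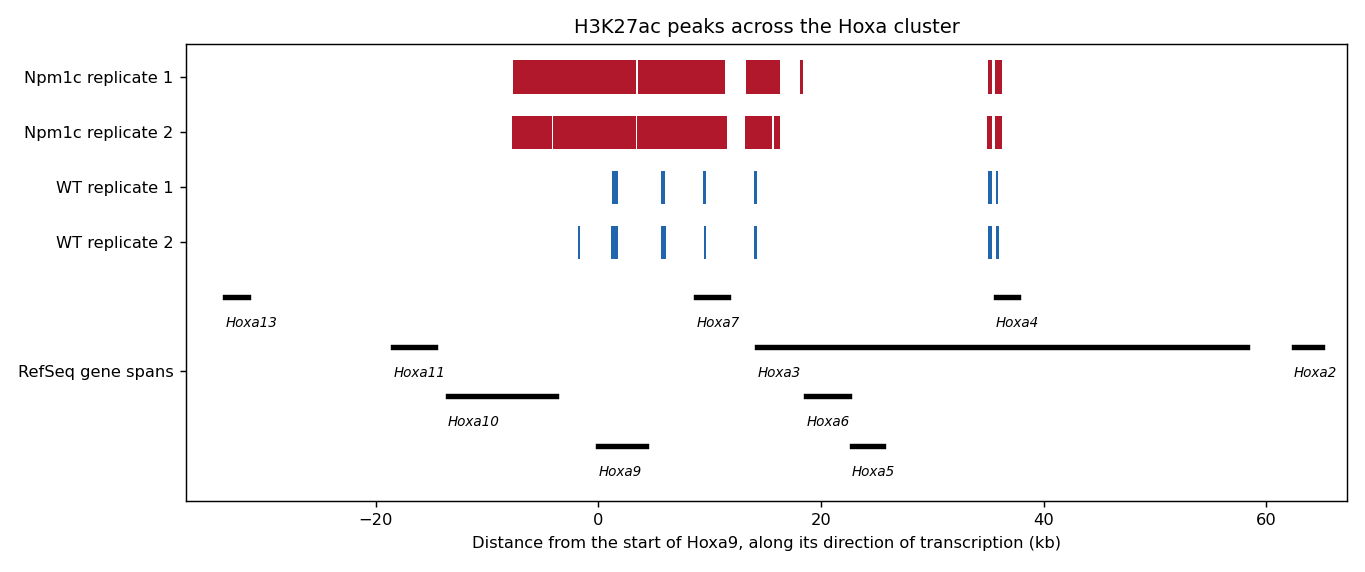
H3K27ac peaks of the 4 libraries (upper rows, Npm1c above WT) and RefSeq gene spans (lower rows) from Hoxa13 to Hoxa2, by distance from the Hoxa9 start in kb; positive values run along the direction of Hoxa9 transcription. The Npm1c peaks join into domains of up to 11055 bp around Hoxa9, where no WT peak is wider than 547 bp.

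The microRNA gene Mir196b lies between Hoxa9 and Hoxa10, inside the widened domain. Of 1005 microRNA hairpins with a RefSeq position, 6 lay at least partly under peaks in both Npm1c lists and in neither WT list (Mir101b, Mir1931, Mir1945, Mir196b, Mir212 and Mir21a). For the reverse pattern the count was 0, and 71 hairpins were covered in all 4. The Mir196b hairpin (chr6:52230081-52230165, minus strand) was covered along its full 85 bp in both Npm1c libraries and for 0 bp in both WT libraries. Mir21a (chr11:86584067-86584158, minus strand) was covered along all 92 bp in both Npm1c libraries, and Mir212 along all 91. With 10 kb added on each side of Mir21a the WT libraries did have peaks, which covered 9892 and 9094 bp in Npm1c and 5670 and 5362 bp in WT. miR-196b is known for targeting Hox transcripts and miR-21 for high levels in many tumours; levels of mature RNA were not measured here. Their main mature arms, from RefSeq on GRCm38.p6, are shown with the seed (bases 2 to 8) in capitals, because these are the products of the hairpins that came under acetylation. No seed is shared among the arms shown.
mmu-miR-196b-5p: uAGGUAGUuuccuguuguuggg
mmu-miR-21a-5p: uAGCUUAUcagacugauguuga
mmu-miR-212-3p: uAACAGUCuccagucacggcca
mmu-miR-101b-3p: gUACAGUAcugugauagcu

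Transcription starts themselves came under peaks in Npm1c cells. Among 32817 RefSeq promoters of 26994 genes, a start was under a peak in both Npm1c lists and in neither WT list at 1026 promoters of 995 genes. The reverse held at 9 promoters, and 6485 starts were under a peak in all 4 lists. At Hoxa9 the nearest WT peak ended 1214 and 1179 bp from the start in replicates 1 and 2, while both Npm1c libraries covered all 300 bases of the promoter. At the inner Hoxa10 start, 121 and 187 of the 300 bases were covered in Npm1c, and the nearest WT peaks lay 8783 and 5769 bp away. The Itga2b start, of the gene for the megakaryocyte integrin CD41, lay under peaks of 1075 and 600 bp in Npm1c, and 185 and 134 bp outside WT peaks of 258 and 333 bp. At Vav1, a signalling gene of blood cells, the start was under peaks of 557 and 2055 bp in Npm1c, and 36 and 64 bp beyond the edge of WT peaks of 512 and 784 bp. These 4 promoters are shown because their starts changed from outside a peak in WT to inside a peak in Npm1c. Each runs from 250 bases before the start to 50 after it on the gene's strand (RefSeq, GRCm38.p6), with matches to the motifs named below in capitals: Hoxa9 at chr6:52227321-52227620 (minus strand), Hoxa10 at chr6:52234890-52235189 (minus), Itga2b at chr11:102469834-102470133 (minus) and Vav1 at chr17:57278850-57279149 (plus).
Hoxa9: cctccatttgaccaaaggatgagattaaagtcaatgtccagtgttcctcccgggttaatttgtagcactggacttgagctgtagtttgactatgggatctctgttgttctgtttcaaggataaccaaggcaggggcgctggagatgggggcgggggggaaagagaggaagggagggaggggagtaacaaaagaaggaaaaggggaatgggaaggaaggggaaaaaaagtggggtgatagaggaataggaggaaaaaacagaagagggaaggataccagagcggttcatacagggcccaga
Hoxa10: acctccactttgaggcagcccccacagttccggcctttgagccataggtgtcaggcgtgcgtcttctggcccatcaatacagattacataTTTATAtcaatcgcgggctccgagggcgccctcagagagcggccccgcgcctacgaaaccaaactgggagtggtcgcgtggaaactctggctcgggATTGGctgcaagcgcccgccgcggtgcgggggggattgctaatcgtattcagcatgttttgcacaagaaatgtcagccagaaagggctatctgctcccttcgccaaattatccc
Itga2b: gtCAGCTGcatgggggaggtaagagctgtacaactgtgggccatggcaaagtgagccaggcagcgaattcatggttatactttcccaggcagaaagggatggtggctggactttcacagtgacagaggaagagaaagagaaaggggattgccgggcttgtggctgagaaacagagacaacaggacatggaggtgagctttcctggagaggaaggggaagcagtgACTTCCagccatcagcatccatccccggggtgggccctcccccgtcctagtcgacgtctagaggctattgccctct
Vav1: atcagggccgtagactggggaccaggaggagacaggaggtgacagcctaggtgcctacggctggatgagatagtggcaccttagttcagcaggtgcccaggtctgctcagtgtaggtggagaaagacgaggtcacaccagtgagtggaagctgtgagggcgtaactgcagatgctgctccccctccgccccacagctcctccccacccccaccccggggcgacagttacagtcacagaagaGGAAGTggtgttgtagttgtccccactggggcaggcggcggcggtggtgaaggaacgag

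Motifs were searched on both strands in all promoters of that length, and a match is a run of letters, not a binding site. Vav1 held an ETS core (GGAAGT) and Itga2b held it on the opposite strand (ACTTCC) with an E-box (CAGCTG). Hoxa10 held a CCAAT box and the letters TATAAA of a TATA box, both on the opposite strand. No match to the motifs searched was in the Hoxa9 window. Of all 32817 promoters, 23.8% held the ETS core, 16.3% the E-box, 37.4% the CCAAT box and 13.6% the TATA letters. The other motifs were the GATA factor motif, spelled AGATAA (11.2%), RUNX, spelled TGTGGT (16.8%), AP-1, spelled TGAGTCA (5.2%) and HOX, spelled TTTATGG with TTTATTG as a second form (7.2%). Among the 235 promoters whose start fell in a gained region, the shares were 26.4% for ETS, 17% for the E-box, 33.6% for CCAAT, 8.09% for TATA, 8.51% for GATA, 15.3% for RUNX, 2.98% for AP-1 and 5.11% for HOX. These 235 promoters were of intermediate CpG content, with a median of 13 CpG per 300 bases, against 23 in the 9290 promoters with a start in a shared region and 7 in all promoters.

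Peaks of the 4 lists were merged into 34238 regions, and regions were sorted by which libraries held a peak. A region with a peak in both Npm1c libraries and neither WT library was called gained, and the reverse was called lost. Gained regions numbered 4079 (11.9% of all regions) and lost regions 108 (0.315%). All 4 libraries held a peak at 15573 regions (45.5%), here called shared. A further 10658 regions (31.1%) had a peak in 1 Npm1c library and no WT library, and 385 (1.12%) had one in 1 WT library and no Npm1c library. Single regions have no test of their own with 2 libraries a group. Gained counts depend on what is called in each list: when every list was held to its widest peaks at equal number, 1393 regions were gained and 437 were lost. With Npm1c replicate 1 or replicate 2 left out, 10854 or 9485 were gained and 718 or 532 lost, and with WT replicate 1 or 2 left out 301 or 331 were lost.

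Most of the added length lay in regions that also held peaks in both WT libraries. Of the 8.44 Mb by which the Npm1c mean exceeded the WT mean, shared regions gave 4.53 Mb (53.7%), gained regions 1.71 Mb (20.3%) and regions found in 1 Npm1c library and no WT library another 20.3%. Within shared regions, the covered length had a median of 1024 and 1057 bp in Npm1c and 758 and 771 bp in WT. At 11535 of them (74.1%) both Npm1c libraries covered more than either WT library, and at 192 (1.23%) both covered less. The median Npm1c to WT ratio was 1.28, with quartiles of 1.13 and 1.52. A ratio of 2 or more was seen at 1287 shared regions (8.26%), 4 or more at 73, and 0.5 or less at 14. Shared regions were less broken up in Npm1c, with 1.12 peaks per region in both Npm1c libraries, against 1.25 and 1.23 in the WT libraries.

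**Figure D3:**
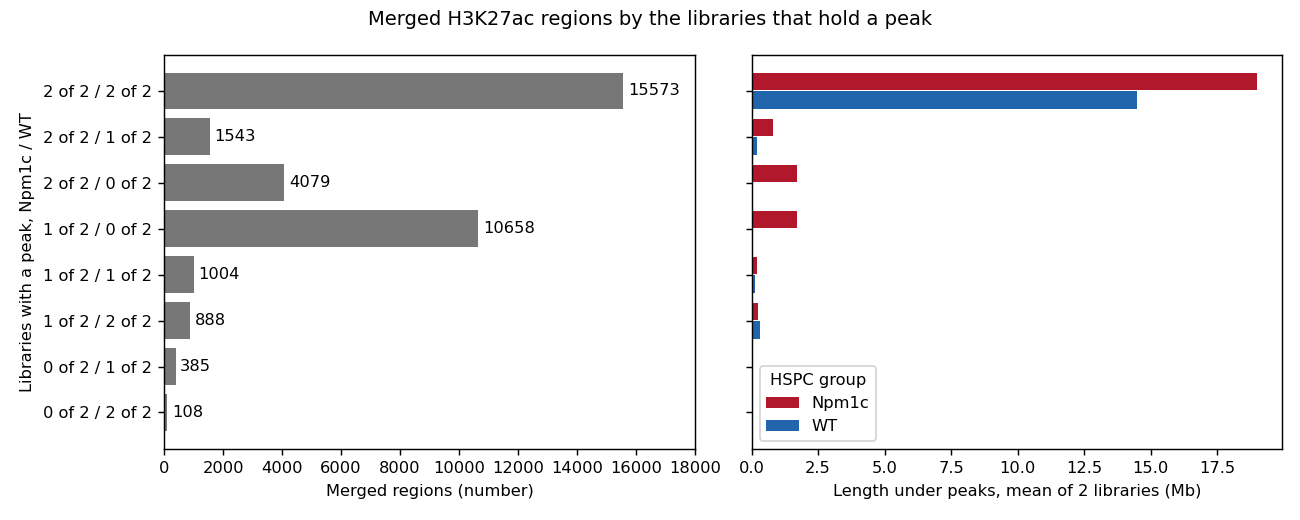
Merged H3K27ac regions by the number of Npm1c and WT libraries with a peak (rows). The left panel gives the number of regions and the right panel the mean length under peaks in Mb (Npm1c above WT in each row); regions held by all 4 libraries are 15573 and carry 4.53 Mb of the 8.44 Mb difference.

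The size of the widening was alike at regions with and without H3K4me3, but a smaller share of those without it was wider in both libraries. At 12853 shared regions that overlapped H3K4me3, the mark of active promoters, in both WT libraries, the median ratio was 1.28 and 77.3% were wider without overlap of the groups. At 1472 shared regions with no H3K4me3 in any Npm1c or WT library the ratio was 1.27 and the share 62.6%. H3K4me3 in any of these 4 lists overlapped 76.3% of all regions. A RefSeq start lay within 1000 bp of only 36.2% (chromosome 18 left out), so the split does not separate promoters from other sites.

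After the Hoxa pair, the shared regions that gained most length included several at blood transcription factor and signalling genes. Elf1, an ETS factor gene, had a region (chr14:79531672-79539048) covered for 7377 and 7034 bp in Npm1c, against 2738 and 2936 bp in WT. Dapp1, an adaptor gene of lymphocyte signalling, followed with 8974 and 8354 bp in Npm1c and 4745 and 3925 bp in WT. The Erg region, of an ETS factor needed in stem cells, had 6615 and 7490 bp in Npm1c and 3713 and 3858 bp in WT. At Gata2, a zinc finger factor of stem cell maintenance, a region over a start (chr6:88195992-88199972) was covered for 3769 and 3865 bp in Npm1c and 635 and 653 bp in WT. Kit, the stem cell factor receptor gene, had 3475 and 4201 bp over its start in Npm1c and 1157 and 1212 bp in WT. Regions at Pcdh7 and Cmtm7 also ranked above those at Gata2 and Kit. The Pcdh7 region had 4466 and 4622 bp in Npm1c and 1215 and 1140 bp in WT. The Cmtm7 region had 4806 and 6183 bp in Npm1c and 2404 and 2170 bp in WT. In each of these regions the groups did not overlap, but the regions were ranked by this same difference.

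The shared regions that lost most length were few and smaller. Akna, which encodes an AT-hook protein, had a region (chr4:63389849-63392043) covered for 747 and 553 bp in Npm1c and 1891 and 1822 bp in WT. A Fam53b region was covered for 3048 and 1465 bp in Npm1c and 3390 and 3202 bp in WT, so that most of its fall lay in Npm1c replicate 2. A Csk region, of a kinase that restrains Src kinases, had 1074 and 1576 bp in Npm1c and 1961 and 2039 bp in WT.

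Gained regions were short and mostly away from starts. Their median width was 460 bp, against 319.5 bp for lost regions, 1165 bp for shared regions and 570 bp for all regions. A RefSeq start lay within 1000 bp of 18.7% of gained, 14.3% of lost, 59.4% of shared and 36.2% of all regions; chromosome 18 has no promoter table and is left out here. Gene spans were overlapped by 63.8% of gained regions and by 72.7% of all.

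Most gained regions already carried H3K4me1 in WT cells, at about the share of all regions. H3K4me1, a mark of primed and active enhancers, overlapped 76.7% and 75.9% of gained regions in the Npm1c libraries and 76.9% and 77.0% in the WT libraries, against between 78.6% and 79.7% of all regions in these 4 lists. H3K4me3 overlapped 65.8% and 56.6% of gained regions in Npm1c and 52.0% and 55.7% in WT. Npm1c replicate 1 stood above the other libraries, and over all regions it also had the highest share, with 71.9% and 64.1% in Npm1c and 62.3% and 64.9% in WT. Of 1182 gained regions with no H3K4me3 in any of the 4 lists, 797 (67.4%) had H3K4me1 in both WT libraries. In 20 (1.69%) H3K4me1 was found in both Npm1c and no WT library, and in 120 (10.2%) it was in none of the 4; over all 8108 regions without H3K4me3 these shares were 1.5% and 12.6%. H3K4me1 and H3K4me3 peaks were deposited at a fixed width of 1000 bp, so only their presence is used.

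The widest gained regions fell in genes of several roles. The widest, 2348 bp in Rnf220, a ubiquitin ligase gene (chr4:117486042-117488389), had 1715 and 2246 bp under peaks in Npm1c. In Cdk6, a cell cycle kinase gene of progenitor cells, a gained region (chr5:3355255-3357167) had 1314 and 1681 bp in Npm1c. Hoxb3 held a gained region (chr11:96310484-96312254) with 1771 and 1522 bp in Npm1c. Further gained regions among the 10 widest lay in M1ap, Armc2, Adgrg1, Ankrd11 and Gna15 and near Zfp36l2, with 1782 to 2286 bp of merged width. The WT value is 0 bp at each by definition.

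Some gene windows held up to 10 gained regions, and clustering beyond window length and number of regions was not tested. Maml3, a Notch co-activator gene, and Mbnl1, a splicing regulator gene, each had 10 gained regions within their span and 10 kb on each side. Etv6, an ETS repressor gene needed in stem cells, the receptor gene Notch2 and the lipid transfer gene Pitpnc1 each had 9, and Runx1 and Foxo3, both transcription factor genes of stem cells, had 7. These windows are long: the Maml3 span is 418 kb, and per 100 kb of window Maml3 held 2.28 gained regions, Mbnl1 5.64, Notch2 5.74 and Foxo3 6.09.

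Lost regions were few and narrow. Both WT neutrophil libraries held H3K27ac at 58 of the 108 lost regions (53.7%), at 16.0% of gained, 70.9% of shared and 42.8% of all regions. The widest lost region, 874 bp in Ift140, a cilium transport gene (chr17:25087397-25088270), had 530 and 692 bp in WT. Arl11 lost a 519 bp region (chr14:61310736-61311254) that had 324 and 519 bp in WT. The rest of the 10 widest lay in Capn5, Fam53b, St3gal1, Tnip1, Eipr1 and Nprl3 and near Rell1 and Gtf2i.

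The regions were also looked up in the other mutant cells. Both Flt3-ITD libraries held H3K27ac at 26.4% of gained regions, and both libraries of the group labelled DM at 22.6%. For all regions the values were 49.5% in Flt3-ITD and 44.9% in DM, and for shared regions 87.8% and 76.9%. None of the 6 other H3K27ac libraries (Flt3-ITD, DM and WT neutrophils) had a peak at 1556 gained regions (38.1%), against 28.0% of all regions. In the Hoxa cluster the covered length was 23.5 and 23.8 kb in Npm1c, 4.83 and 5.03 kb in Flt3-ITD, 20.8 and 15.3 kb in DM, 0.457 and 0 kb in neutrophils, and 2.05 and 2.39 kb in WT HSPC. For Kit the values were 4.68 and 5.42 kb in Npm1c, 1.57 and 2.43 kb in Flt3-ITD, 0.353 and 0.578 kb in DM, and 1.16 and 1.21 kb in WT HSPC. For the gene Flt3 they were 3.84 and 4.63 kb in Npm1c, 5.4 and 4.3 kb in Flt3-ITD, 11.8 and 6.3 kb in DM, and 0.942 and 0.718 kb in WT HSPC. Flt3 coverage above WT was thus seen in all mutant groups. The mutant groups share the WT libraries as controls, so these values are set side by side without a test.

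For gene values, the base pairs under peaks were summed over each protein-coding gene's span plus 10 kb on each side. Values were tested as log2(bp + 500) with limma across the 10 H3K27ac libraries of 5 groups, with Benjamini-Hochberg adjustment over 13637 genes. Without centring of the libraries, 2410 genes were higher in Npm1c (17.7%) and 3 were lower (0.022%), at an adjusted p below 0.05. The median gene was 0.36 higher in Npm1c on this log2 scale. When each library was centred on its own median, 104 genes stayed higher (0.763%), all among the 2410, and 5 were lower (0.0367%). These counts rest on both WT libraries. Without WT replicate 2 the uncentred test called 5 genes (Hoxa9, Hoxa10, Hoxa7, Hoxa11 and Hoxa6), and without WT replicate 1 it called 9, these 5 included. After centring it called 10 genes without WT replicate 2 and 8 without WT replicate 1, both with these 5, Meis1 and Hoxa3. In these fits the lone WT library is assumed to vary like the other groups. Other named genes below therefore lose their call in at least 1 of these fits. Without Npm1c replicate 1 or 2 it called 1253 or 776 genes, and centred 185 or 245. With the 4 compared libraries alone in the fit, centred values gave 7 higher and 0 lower genes.

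The overlap of libraries shows how broad the shift was. At 10683 of the 13637 genes (78.3%) both Npm1c libraries exceeded both WT libraries, and at 61 (0.447%) both lay below. Peaks were present in both Npm1c libraries and absent from both WT libraries at 453 genes, and the reverse at 5. Of the 104 genes higher after centring, 99 (95.2%) had a gained region in their window, against 56.7% of the 2410 and 23.3% of all genes tested; the count uses the peaks that made the call.

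Hox genes and Meis1 led the gene list. Hoxa9 (chr6:52223097-52227370), the leading self-renewal factor among HOXA genes, had 19.9 and 20.2 kb in Npm1c and 1.47 and 1.68 kb in WT, a log2 change of 3.31 ± 0.14 (SE; limma, Benjamini-Hochberg adjusted p = 0.000188) and 2.91 after centring. Meis1 (chr11:18880428-19019651), the cofactor gene, had 7.47 and 10.7 kb in Npm1c and 0.263 and 0.709 kb in WT, a change of 3.3 ± 0.33 (limma, adjusted p = 0.00915). Its window held 4 gained regions and 1 shared region, so new peaks made up more of the change than at Hoxa9, whose window held 3 shared and 0 gained. Hoxa11 had 2.91 and 2.97 kb in Npm1c and none in WT, but this length is the edge of the Hoxa9 and Hoxa10 domain inside its 10 kb flank. Hoxb5 had 2.87 and 2.41 kb in Npm1c and none in WT, and Hoxb3 4.16 and 3.85 kb in Npm1c and 0.501 and 0.49 kb in WT.

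Several genes outside the HOX group had no peak in WT. Slc8a1, a sodium-calcium exchanger gene, had 2.9 and 3.11 kb in Npm1c and no peak in WT, with 4 gained regions. Ppm1e, a phosphatase gene, had 2.28 and 3.16 kb in Npm1c and none in WT, and Sytl3, a vesicle transport gene, 1.58 and 3.47 kb in Npm1c and none in WT. Of the Sytl3 length, 654 and 1541 bp in Npm1c lay in a gained region of Ezr, inside the 10 kb flank of Sytl3. Ece1, an endothelin-converting enzyme gene, had 1.62 and 2.42 kb in Npm1c and none in WT; Dnm3, a dynamin gene of megakaryocytes, had 1.48 and 2.3 kb in Npm1c and none in WT. S1pr1, a receptor gene for blood cell egress, had 1.6 and 1.24 kb in Npm1c and none in WT. For such genes the fitted change depends on the 500 bp added and gives no fold. Slc22a3, a cation transporter gene, had 2.43 and 2.23 kb in Npm1c and none in WT, and was not called after centring (limma, adjusted p = 0.0694). Kcng2, a potassium channel gene, had 2.99 and 3.25 kb in Npm1c and 0 and 0.344 kb in WT. Ece1, Dnm3, S1pr1, Foxo3, Vav1 and the genes of the widened and narrowed regions were chosen after their values were seen.

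Few genes were lower. Arl11, a small GTPase gene, had 0 and 0.264 kb in Npm1c and 0.898 and 0.757 kb in WT (log2 change -1.1 ± 0.28; limma, Benjamini-Hochberg adjusted p = 0.0383). Slc22a29, a transporter gene, had no peak in Npm1c and 0.46 and 0.413 kb in WT. The third uncentred call was the clone 4930519G04Rik. After centring Hjurp, a centromere chaperone gene, with 4.01 and 3.79 kb in Npm1c and 5.27 and 5.36 kb in WT, and Hsbp1l1 were lower too. Without either WT library no gene was called lower.

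**Figure D4:**
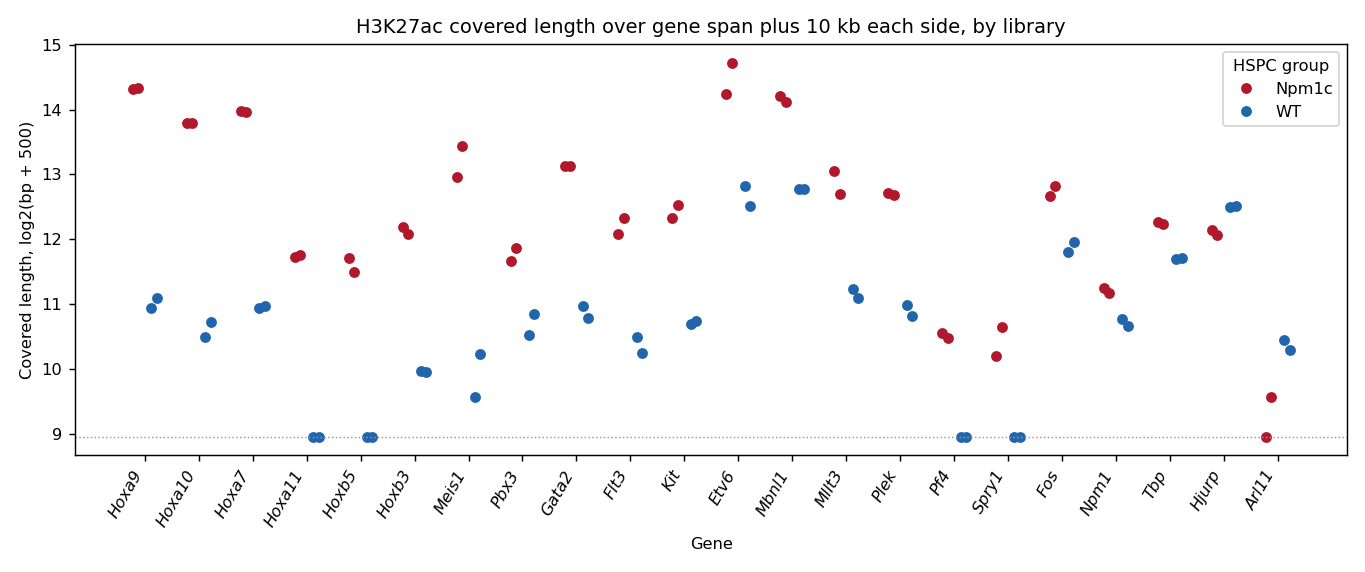
Covered H3K27ac length per library, as log2(bp + 500), over the span and 10 kb on each side of 22 genes (Npm1c left of WT for each gene; the dotted line marks no peak). Both Npm1c points lie above both WT points except at Hjurp and Arl11, where they lie below.

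The gene groups below were compared with all tested genes, of which 17.7% were higher without centring and 0.763% with it. Of 39 HOX genes, 15 had enough coverage to be tested and 11 were higher both without and with centring, none lower, with a median log2 change of 2.18 against 0.36 for all genes. Neighbouring HOX windows hold the same peaks, so the 11 are not 11 separate changes. The tested Hoxa2 and Hoxa4 were not called. The tested Hoxb1 and the 24 HOX genes left untested, among them all of the Hoxc and Hoxd clusters, had no peak in any of the 4 libraries. Of 6 HOX cofactor genes tested, 4 were higher without centring and Meis1 alone after it. Pbx3, which partners HOXA9, had 2.77 and 3.24 kb in Npm1c and 0.98 and 1.36 kb in WT (log2 change 1.08; centred 0.68, limma, adjusted p = 0.145).

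Of 27 stem and progenitor genes tested, 12 were higher without centring (44.4%), and Flt3, Kit and Ikzf2 after it (11.1%); 26 had both Npm1c libraries above both WT libraries, as had 78.3% of all tested genes. Flt3 (chr5:147330741-147400489), the cytokine receptor gene of early progenitors, had 3.84 and 4.63 kb in Npm1c and 0.942 and 0.718 kb in WT, with 5 gained regions. Kit (chr5:75574987-75656722) had 4.68 and 5.42 kb in Npm1c and 1.16 and 1.21 kb in WT (log2 change 1.72 ± 0.19; limma, adjusted p = 0.0105). Gata2 had 8.46 and 8.47 kb in Npm1c and 1.51 and 1.26 kb in WT, a change of 2.25 ± 0.5 that was not called after centring (1.86; limma, adjusted p = 0.121). Mecom, a stem cell zinc finger gene, had 0.23 and 1.11 kb in Npm1c and no peak in WT. Others were not called, such as Cd34, which had 0.413 and 0.524 kb in Npm1c and 0.236 and 0.212 kb in WT (log2 change 0.42, limma, adjusted p = 0.0914).

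Megakaryocyte genes were the next group. Of 17 tested, 9 were higher without centring (52.9%) and 2 after it, the platelet chemokine genes Pf4 and Ppbp, which lie side by side and share gained regions. Pf4 (chr5:90772435-90773383) had 1.01 and 0.931 kb in Npm1c and none in WT, and none in the Flt3-ITD, DM and neutrophil libraries. Plek, a platelet kinase substrate gene, had 6.22 and 6.06 kb in Npm1c and 1.53 and 1.31 kb in WT (log2 change 1.79). Itga2b had 2.19 and 1.92 kb in Npm1c and 0.542 and 0.674 kb in WT (1.21). Vwf, another platelet gene, had 5.0 and 3.6 kb in Npm1c and 3.67 and 3.26 kb in WT, with overlapping groups. Of the 21 genes on this list, 4 had no peak in any of the 4 libraries.

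Markers of other blood lineages were mostly not called and differed between the Npm1c libraries. Erythroid genes had 3 of 21 higher without centring (14.3%), namely the transcription factor gene Nfe2, Car1 and Rhag, and none with it; their summed length was 114 and 78.3 kb in Npm1c and 68.9 and 67.0 kb in WT. Primary granule and granulocyte-monocyte progenitor genes had 2 of 15 higher (13.3%), Hdc and Cebpe, with a sum of 21.1 and 38.1 kb in Npm1c and 14.7 and 15.6 kb in WT. Npm1c replicate 1 was thus the higher library for erythroid genes and replicate 2 for granulocyte-monocyte genes. Mpo, the myeloperoxidase gene, had 4.42 and 6.08 kb in Npm1c and 2.99 and 2.98 kb in WT (log2 change 0.71; limma, adjusted p = 0.116). Eosinophil, basophil and mast cell genes had 4 of 8 tested higher, Hdc, Ccr3, Ms4a2 and Mitf, with sums of 6.46 and 11.2 kb in Npm1c and 1.35 and 2.13 kb in WT, and 9 of the 20 listed had no peak in the 4 libraries. After centring, 0 of the 15 primary granule and granulocyte-monocyte genes and 0 of these 8 were called. The part of cell composition in the calls above was not tested.

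Mature neutrophil, monocyte and lymphoid genes had little coverage in either group. Of 18 neutrophil genes tested, 1 (Il1b) was higher without centring, and 12 of the 21 listed, such as S100a8, S100a9, Ltf and Camp, had no peak in any of the 4 libraries. Their sums were 8.16 and 10.7 kb in Npm1c and 4.98 and 5.13 kb in WT. Monocyte and macrophage genes had 1 of 9 higher (Vcan), with sums of 7.94 and 13.9 kb in Npm1c and 5.37 and 4.91 kb in WT. Dendritic cell genes had 3 of 13 higher (23.1%), and B-lymphoid genes 2 of 11 (18.2%), Cd22 and Rag2. T and NK cell genes had 4 of 9 higher (44.4%), Cd247, Klrb1c, Lat and Lck, with a median log2 change of 0.58. This share equals that of the stem and progenitor genes without centring. None of these lists had a call after centring.

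Immediate early genes, which encode AP-1 and related factors induced by growth signals, had 13 of 24 higher without centring (54.2%) and 0 after it. Their median log2 change was 0.53, against 0.36 for all genes, and 23 of the 24 had both Npm1c libraries above both WT libraries, against 78.3% of all tested genes. Fos had 6.03 and 6.74 kb in Npm1c and 3.09 and 3.5 kb in WT (log2 change 0.86), and Atf3 0.998 and 1.89 kb in Npm1c and 0 and 0.208 kb in WT (1.67). Klf2 had 1.92 and 3.01 kb in Npm1c and 0.634 and 0.878 kb in WT (1.22). Klf6 differed little, with 3.67 and 3.77 kb in Npm1c and 3.34 and 3.24 kb in WT (0.15; limma, adjusted p = 0.315).

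STAT5 and MAPK feedback genes, which answer cytokine signals, had 7 of 28 higher without centring (25%) and 1 after it. That gene, Spry1, an inhibitor of receptor kinase signalling, had 0.686 and 1.11 kb in Npm1c and none in WT, with 1 gained region. Socs2, a direct STAT5 target, had no peak in any of the 4 libraries. Cytokine receptor and niche adhesion genes had 8 of 29 higher without centring (27.6%) and 0 with it. Adgrg1, an adhesion receptor gene of stem cells, had 14.3 and 16.4 kb in Npm1c and 6.52 and 6.24 kb in WT (log2 change 1.2). Csf3r, the G-CSF receptor gene, had 1.76 and 1.83 kb in Npm1c and 1.69 and 1.75 kb in WT (0.05; limma, adjusted p = 0.82).

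NPM1c leukaemia is known to depend on MLL and menin. Genes of their complex and of other chromatin regulators had 6 of 30 higher without centring (20.0%) and Hdac3 after it. Mllt3 (chr4:87769925-88033407), which encodes the MLL fusion partner and acetyl-lysine reader AF9, had 8.01 and 6.18 kb in Npm1c and 1.93 and 1.7 kb in WT (log2 change 1.71 ± 0.3; limma, adjusted p = 0.0201; centred 1.31, adjusted p = 0.0729). Dot1l, the H3K79 methyltransferase gene, had 5.34 and 5.47 kb in Npm1c and 3.05 and 3.05 kb in WT (0.74). Kmt2a, encoding MLL itself, had 2.66 and 3.81 kb in Npm1c and 1.52 and 1.98 kb in WT (0.72; limma, adjusted p = 0.0796), and Men1, encoding menin, 2.25 and 3.71 kb in Npm1c and 1.55 and 1.94 kb in WT (0.61; limma, adjusted p = 0.126). Hdac3, with 5.86 and 6.41 kb in Npm1c and 2.58 and 2.76 kb in WT, lost its centred difference without its 10 kb flanks (log2 change -0.04). A shared region in the neighbouring gene Diaph1 lies in that flank. It was covered for 4314 and 4268 bp in Npm1c and 1532 and 1873 bp in WT.

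The mutated gene itself was not called. Npm1 had 1.93 and 1.81 kb in Npm1c and 1.24 and 1.13 kb in WT (log2 change 0.49 ± 0.2; limma, adjusted p = 0.111); peak positions carry no allele and do not check the genotype labels. Nucleolar and ribosome biogenesis genes, the setting of nucleophosmin's normal role, had 3 of 18 higher without centring (16.7%), Nop58, Gnl3 and Pes1, and 0 with it. Housekeeping genes had 3 of 15 (20.0%), among them Polr2a and Tbp, with a median log2 change of 0.39. Both shares lie near the 17.7% of all genes.

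**Figure D5:**
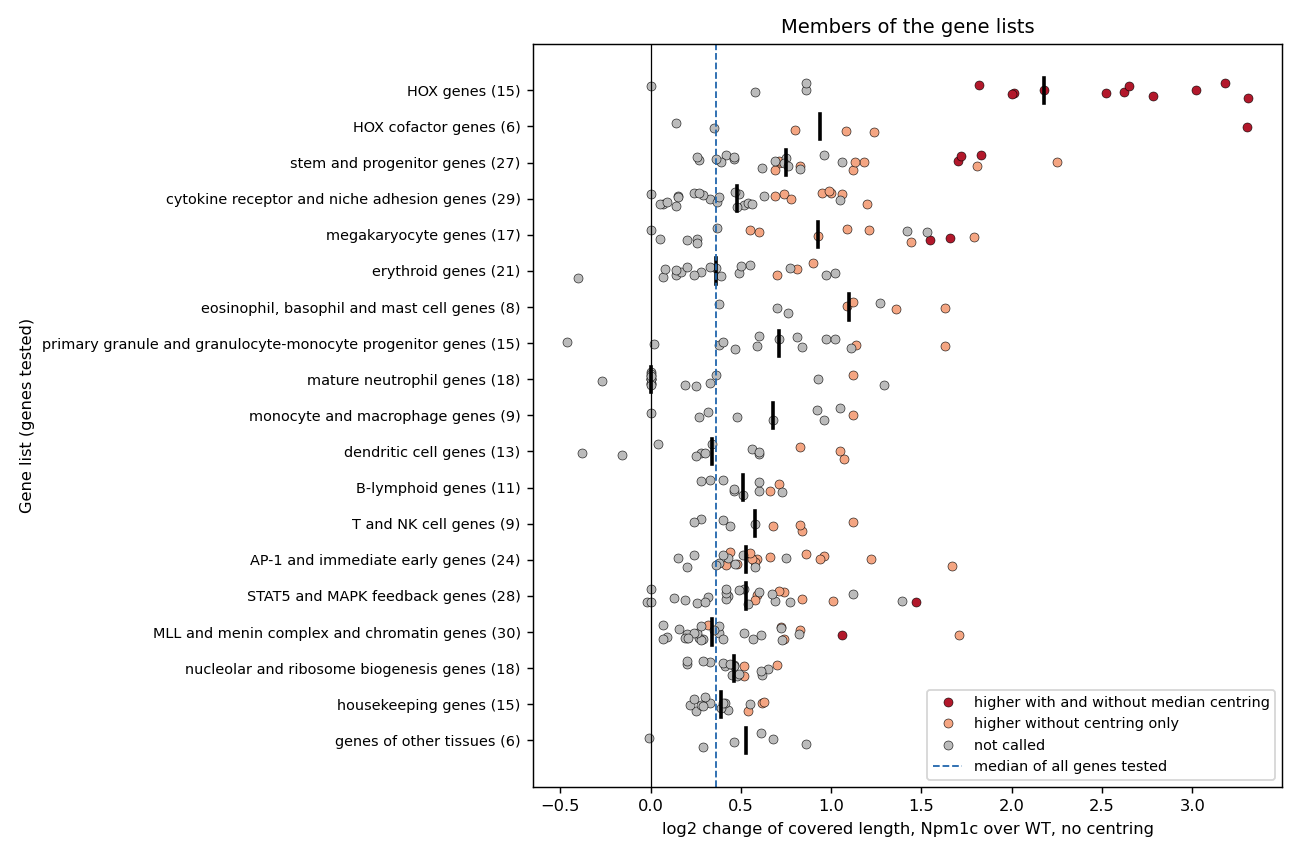
log2 change of covered H3K27ac length, Npm1c over WT without centring, for the tested members of 19 gene lists (rows, number tested in brackets). Points are genes, coloured by their call, black bars are list medians, and the dashed line is the median of all genes, 0.36; the median of HOX genes is 2.18.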

How the data were processed

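H3K27ac ChIP-seq peaks of Npm1c and WT HSPC were read from the deposited lists, whose unit is other: chromosome, start and end, with no signal or count. The submitters' processing notes name mm10, Bowtie2 2.1.0, Picard, MACS2 (H3K27ac peaks) and HOMER (methylation marks). Peak thresholds: not given in the sources used here. Peaks off chromosomes 1 to 19, X and Y (5 to 7 per H3K27ac list) were left out. Overlap meant at least 1 bp.

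Covered base pairs over gene spans plus 10 kb (RefSeq, GRCm38.p6) entered limma 3.58.1 (R 4.3.3; eBayes with trend, threshold 0.05) on the log2(bp + 500) scale. A gene needed coverage in 2 or more of the 10 libraries, which 13637 genes had. The code was tested on simulated data. Region counts and figures used Python 3.11.15. Members and lists were chosen with earlier results of these data known. Genes named by rule were the 12 largest calls each way with all 4 library differences of 1 sign, up to 5 per list, Npm1, and genes at the 10 widest gained or lost regions or with most gained regions. Other genes were named outside this rule, such as Mecom, Cd34, Vwf, Mpo, Klf6, Socs2, Csf3r, Kmt2a and Men1. These were not followed under the other settings below. Labels do not say that replicate numbers pair mice. Input samples were not used here. Some genes are not reported here.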

Additional observations from a re-analysis of the deposited data

How the results depend on the processing

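The count of genes called without centring (2413) stayed within 1.5 times under pseudocounts of 100 and 2000 bp, a filter on the 4 compared libraries, spans without flanks, the 4 libraries alone and robust eBayes. It was 979 with no coverage filter, 4136 with 50 kb flanks, 1116 with lists held to their widest peaks, and 5 to 1253 with 1 library left out. The centred count (109) was 8980 with no filter, where 7763 of 8105 lower genes have no peak in any of 10 libraries and fall by the centring itself. It was 7 with the 4 libraries alone, 30 with equal lists, 59 with centring on total covered length, and 8 to 245 with 1 library left out. Except where construction shows it, the cause was not tested.

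With a replicate block the counts were 1395 without and 72 with centring; deviations of same-numbered libraries had r = 0.093 over 13637 genes, so the numbers are not taken as pairs. Of 128 genes named by rule, 1 reversed: Hdac3 after centring, to -0.04 without flanks.

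Gained regions numbered 2549 with peaks within 500 bp merged, 1393 with equal lists and 4848 to 10854 with 1 library left out. Lost regions numbered 57, 437 and 301 to 718 in the same order. The covered length ratio was 1.42 with equal lists and 1.54 to 1.57 with 1 library left out. Peak lists without heights cannot show changes in signal inside a peak.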

Other observations

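Gained regions were spread over the chromosomes. Their share of the merged regions was highest on chromosome 3 at 14.6% (224 of 1533), and was 8.66% on the X chromosome (64 of 739) and 0 of 4 regions on the Y chromosome, against 11.9% genome-wide. Chromosome 6, which carries the Hoxa cluster, had 229 of 1889 (12.1%). Chromosome 16 had the most lost regions of any chromosome, 11 of 1093.

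Genes of other tissues, a list of 18 that HSPC should not use, had 6 tested and none called in either direction. Their summed length was 10.7 and 8.38 kb in Npm1c and 4.81 and 5.34 kb in WT, and 12 of the 18 had no peak in the 4 libraries. Ddx4, a germ cell gene, carried the largest part, with 6.62 and 3.32 kb in Npm1c and 2.53 and 2.21 kb in WT.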
